A study of Homo sapiens with 24 samples.

Results

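The FOS and JUN genes encode the subunits of the transcription factor AP-1, and their 7 members FOS, FOSB, FOSL1, FOSL2, JUN, JUNB and JUND were followed by symbol and Ensembl identifier in the table of 60617 genes. All 7 passed the filter on low counts and are among the 15476 genes tested. The cells were MDA686TU, an established malignant line of head and neck squamous carcinoma, and the RNA of 4 groups of 6 libraries was sequenced. The control received no compound, the EGCG group 40 µM epigallocatechin gallate (the main catechin of green tea), the resveratrol group 15 µM resveratrol (a stilbene polyphenol of grapes), and the combination group both at these doses, each for 24 h. EGCG was added in water and resveratrol from a DMSO stock. The sources used here do not state whether the control cells received DMSO, so resveratrol and its solvent cannot be told apart. The methods speak of RNA isolated in sextuplicate and do not say whether these were separate cultures, so the p-values measure the spread between these libraries, all from a single cell line.

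AP-1 works as a dimer. FOS proteins cannot pair with each other and need a JUN partner, whereas JUN proteins also pair among themselves and with relatives such as the ATF proteins. The dimers bind short palindromic DNA elements and switch on genes of proliferation, invasion, inflammation and epithelial differentiation. FOS, FOSB, JUN and JUNB are classical immediate early genes, induced within minutes by growth factors or stress, while FOSL1 and JUND proteins are longer lived. In squamous epithelia AP-1 drives both the keratinocyte differentiation programme and, through FOSL1 above all, matrix-degrading proteases of invading cells.

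Libraries held 7034872 to 11735574 counts, and the biological coefficient of variation was 5.32%. The mitochondrial share of the counts was 0.249% to 0.326% for replicates 1 to 3 of all groups and 0.448% to 0.775% for replicates 4 to 6. The labels name no batch, and for the members values within each of these 2 sets of replicates are given where the call in a set differs from the pooled one. All 9 squamous markers tested, among them TP63 and the keratins KRT5 and KRT14, were present in every library. Their summed FPKM was 6404 to 6744 in the control, 6109 to 6892 under EGCG, 5323 to 5606 under resveratrol and 5282 to 5771 with the combination. Of 11 markers of other cell types, 10 stayed under 0.3 FPKM in all libraries, with the leukocyte marker PTPRC at 0 in 16 of 24 libraries and the fibroblast marker DCN at 0 in 22. The exception was the collagen gene COL1A1 at 10.2 to 20.1 FPKM, which is also made by some carcinoma cells. The summed FPKM of these 11 markers was 13.2 to 15.8 in the control, 10.5 to 13.1 under EGCG, 15.4 to 18.2 under resveratrol and 17.8 to 20.6 with the combination. Its part in the results was not tested.

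The promoters of the members are shown because AP-1 and the related CREB and ATF factors bind some of them, so that the family acts on its own genes. Each sequence holds the 250 bases before the RefSeq gene start in GRCh38.p14, read 5′ to 3′ in the direction of the gene. By symbol, 6 of the 7 members were matched, and FOSL1 was not, so its promoter was not searched. Capitals mark letters that match a searched motif. These were TGACTCA, the element bound by FOS and JUN dimers, the cAMP response element TGACGTCA, its variant TGACATCA, and the shorter core TGACGT where it lies outside the full element, all searched on both strands. JUND and FOS are shown as the members that rose most, FOSB as one that fell, JUN as one that did not pass the test with resveratrol, and JUNB as a promoter without a match.

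JUND, chr19:18281623-18281872, minus strand: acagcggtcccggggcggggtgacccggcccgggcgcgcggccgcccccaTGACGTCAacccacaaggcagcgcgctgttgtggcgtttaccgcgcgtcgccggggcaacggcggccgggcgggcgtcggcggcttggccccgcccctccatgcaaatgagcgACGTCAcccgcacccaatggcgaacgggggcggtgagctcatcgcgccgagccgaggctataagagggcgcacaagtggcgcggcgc

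FOS, chr14:75278578-75278827, plus strand: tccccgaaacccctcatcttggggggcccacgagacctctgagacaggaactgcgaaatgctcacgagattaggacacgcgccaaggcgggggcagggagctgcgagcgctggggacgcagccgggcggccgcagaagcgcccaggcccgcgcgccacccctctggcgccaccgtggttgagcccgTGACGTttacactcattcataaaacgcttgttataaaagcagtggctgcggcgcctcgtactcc

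FOSB, chr19:45467746-45467995, plus strand: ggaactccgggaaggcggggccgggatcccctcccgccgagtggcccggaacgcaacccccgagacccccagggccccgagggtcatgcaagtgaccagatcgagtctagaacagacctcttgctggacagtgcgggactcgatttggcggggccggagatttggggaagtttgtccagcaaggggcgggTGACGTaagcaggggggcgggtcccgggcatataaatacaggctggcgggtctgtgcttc

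JUN, chr1:58784048-58784297, minus strand: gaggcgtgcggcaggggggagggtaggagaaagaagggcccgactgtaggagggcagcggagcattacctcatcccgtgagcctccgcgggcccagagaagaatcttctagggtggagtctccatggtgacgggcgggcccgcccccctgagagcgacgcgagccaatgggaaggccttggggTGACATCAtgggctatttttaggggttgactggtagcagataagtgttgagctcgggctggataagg

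JUNB, chr19:12791236-12791485, plus strand: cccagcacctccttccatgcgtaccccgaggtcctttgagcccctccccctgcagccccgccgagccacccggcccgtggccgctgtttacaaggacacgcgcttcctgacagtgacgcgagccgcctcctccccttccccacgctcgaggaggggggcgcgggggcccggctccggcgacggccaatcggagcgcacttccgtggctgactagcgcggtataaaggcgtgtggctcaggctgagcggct

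JUND holds TGACGTCA from 200 to 193 bases before its start, and the core on the opposite strand, read as ACGTCA, from 87 to 82 bases before it. FOS holds TGACGT from 64 to 59 bases before its start, FOSB from 60 to 55 and FOSL2 from 66 to 61. JUN holds TGACATCA from 67 to 60 bases before its start. FOSL2 also holds TGACTCA from 5 to 11 bases after its start. The 250 bases before this RefSeq start of FOSL2 are chr2:28392608-28392857, which lie inside the gene as GENCODE places it. Over 34796 distinct promoters searched in the window from 250 bases before to 50 after the start, 1.84% held TGACGTCA, 2.6% TGACATCA and 4.96% TGACTCA. The core TGACGT was held by 7.97%, a share that, unlike the members' matches, also counts the core inside the full element. The CArG box, the site of serum response factor, was found in 1.3% of these promoters and in none of the windows of the 6 matched members. Bases further than 250 before the start were not searched, so whether FOS or another member has a CArG box there cannot be read from this. A match here is a match of letters, and no binding was measured.

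In untreated cells the family was dominated by FOSL1. Levels of different genes are compared in FPKM, the deposited value per gene length. In the control, FOSL1 stood at 208 ± 8.09 FPKM (SD, n = 6), JUNB at 80.0 ± 3.54, JUN at 36.7 ± 2.01, JUND at 20.5 ± 1.22, FOSL2 at 20.0 ± 1.02, FOSB at 0.626 ± 0.0537 and FOS at 0.584 ± 0.206. The libraries of neighbours in this order did not overlap, except JUND with FOSL2 and FOSB with FOS. FOSL1 therefore made up 56.7% ± 0.858 of the summed FPKM of the 7 genes, JUNB 21.9% ± 0.892 and JUN 10.0% ± 0.274.

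With EGCG, FOSL1 took 56.7% ± 0.650 of the summed FPKM, JUNB 20.6% ± 0.582, JUN 10.8% ± 0.373 and JUND 5.93% ± 0.423. The JUN share was 10.3% to 11.3% in the EGCG libraries and 9.49% to 10.2% in the control libraries, without overlap. On normalized counts the JUN shares overlapped, at 15.42% to 16.95% with EGCG and 14.44% to 15.62% in the control. The level of JUN itself was not called with EGCG (edgeR's quasi-likelihood test, adjusted p = 0.714).

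With resveratrol, the share of FOSL1 fell and those of JUN, JUNB and JUND rose, within a smaller total. The mean summed FPKM of the 7 genes was 366 in the control and 302 with resveratrol. A larger share is therefore not by itself a higher level. The log2 change in level was -0.00055 for JUN, 0.13 for JUNB and 0.93 for JUND. FOSL1 fell to 38.7% ± 1.06 of the summed FPKM, with 37.5% to 40.1% in the 6 libraries against 55.4% to 57.9% in the control. JUND took 12.9% ± 0.291 against 5.61% ± 0.301, and JUNB 28.8% ± 0.480. The combination gave 40.0% ± 0.862 for FOSL1, 13.0% ± 0.361 for JUND and 27.4% ± 0.907 for JUNB. These shares are given as a description, without a test.

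**Figure D1:**
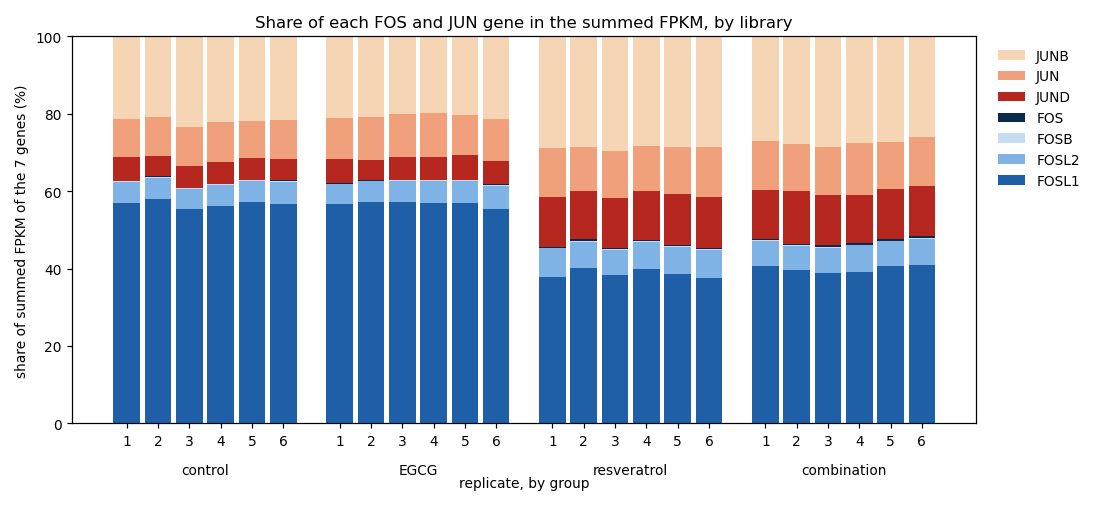
Share of each of the 7 genes in their summed FPKM (y axis, percent) in each of the 24 libraries (x axis, replicates 1 to 6 by group). Blue shades are FOS genes and red to sand shades JUN genes. The FOSL1 block takes 55.4% to 57.9% in the control libraries and 37.5% to 40.1% in the resveratrol libraries, and the JUND block is wider wherever resveratrol was given.

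The summed FPKM of the 3 JUN genes over that of the 4 FOS genes was 0.60 ± 0.027 in the control, 0.597 ± 0.0135 under EGCG, 1.17 ± 0.0471 under resveratrol and 1.13 ± 0.0407 with the combination. With lengths of GENCODE exons, an alternative chosen after seeing the data, the ratio with resveratrol was 1.15. On normalized counts without division by length it was 0.959, so whether it lies above 1 depends on the length correction, while its rise from the control, where it was 0.583 on that scale, does not. In resveratrol-treated cells the order of the levels changed in the lower ranks. JUND reached 39.0 ± 1.02 FPKM, overlapping JUN at 36.6 ± 1.96, and no longer overlapped FOSL2 at 21.0 ± 0.974. FOS reached 1.02 ± 0.175 FPKM and no longer overlapped FOSB at 0.470 ± 0.0545.

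The tests asked which members changed with each compound. Calls needed an adjusted p (Benjamini-Hochberg, edgeR's quasi-likelihood test) under 0.1, together with an unadjusted p under 0.05. The adjustment runs over all genes tested. EGCG against the control gave 0 of 7 members called, where 1.76% of all genes tested were called, 0.905% upward and 0.859% downward. At an unadjusted p under 0.05 there was 1 member, JUNB, and DESeq2 called 0. Resveratrol against the control gave 6 called members, of which FOS, FOSL2, JUNB and JUND rose and FOSB and FOSL1 fell. In that comparison 56.9% of all genes were called, 28.9% upward and 28% downward, so a call alone sets the members little apart. The combination against the control gave 7 called members, 5 upward and 2 downward, where 59.8% of all genes were called, 29.9% in each direction. The combination against resveratrol gave 2 called members, FOSL1 and JUN, both higher in the combination, where 7.86% of all genes were called, 4.01% upward and 3.86% downward.

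**Figure D2:**
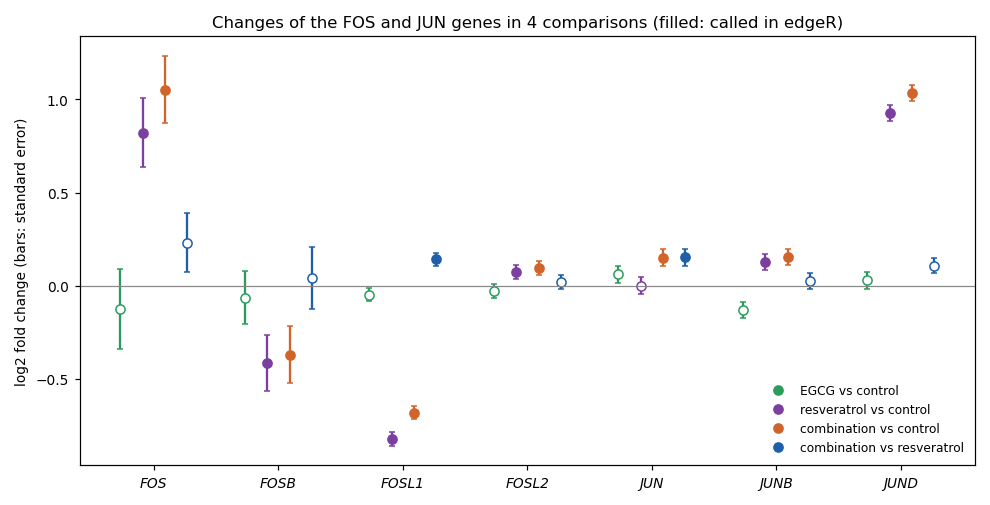
Log2 fold change (y axis, with the standard error as bars) of each gene (x axis) in 4 comparisons, marked by colour, where filled points passed the test. The resveratrol and combination points of FOS and JUND lie between 0.82 and 1.05, those of FOSL1 at -0.82 and -0.68, and all EGCG points are open, between -0.13 and 0.060.

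Resveratrol against EGCG gave 6 called members, 4 higher (FOS, FOSL2, JUNB, JUND) and 2 lower (FOSB, FOSL1), beside 55% of all genes, 27.7% upward and 27.3% downward. The combination against EGCG gave 5, with the same 4 higher and FOSL1 lower, beside 57.8% of all genes, 28.7% upward and 29.1% downward. Within a single set of replicates some of these calls against EGCG differed. FOSB with resveratrol was called in neither set (-0.35 in both, adjusted p = 0.228 and 0.240), and FOSL2 with resveratrol was not called in replicates 1 to 3 (0.089, adjusted p = 0.216). Calls made in 1 set alone were JUN with resveratrol in replicates 1 to 3 (-0.13, adjusted p = 0.0644, against 0.015 in the other set), and with the combination JUN (0.15, adjusted p = 0.0305) and FOSB (-0.48, adjusted p = 0.0960) in replicates 4 to 6. Comparisons that use the same libraries are not independent, and each member's own values are therefore given side by side. Groups of libraries that did not overlap at all were found for 0 members with EGCG (1.63% of all genes), 3 with resveratrol (31.1%), 4 with the combination against the control (31.9%) and 1 with the combination against resveratrol (3.19%). Against EGCG there were 5 in the combination (27.5%) and 4 with resveratrol (27.3%). The median log2 change of the 7 members was -0.047 under EGCG, 0.075 under resveratrol and 0.15 with the combination, beside medians over all genes tested of 0.00090, 0.0037 and -0.0015. In 42 pairwise tests of single members, two-sided exact permutation tests of the log2 CPM gave a p under 0.05 for 25 of the 26 called changes, and the smallest p that 6 against 6 libraries allow, 0.00216, for 17 tests. The called change above that limit was FOSL2 with resveratrol at 0.0887.

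**Figure D3:**
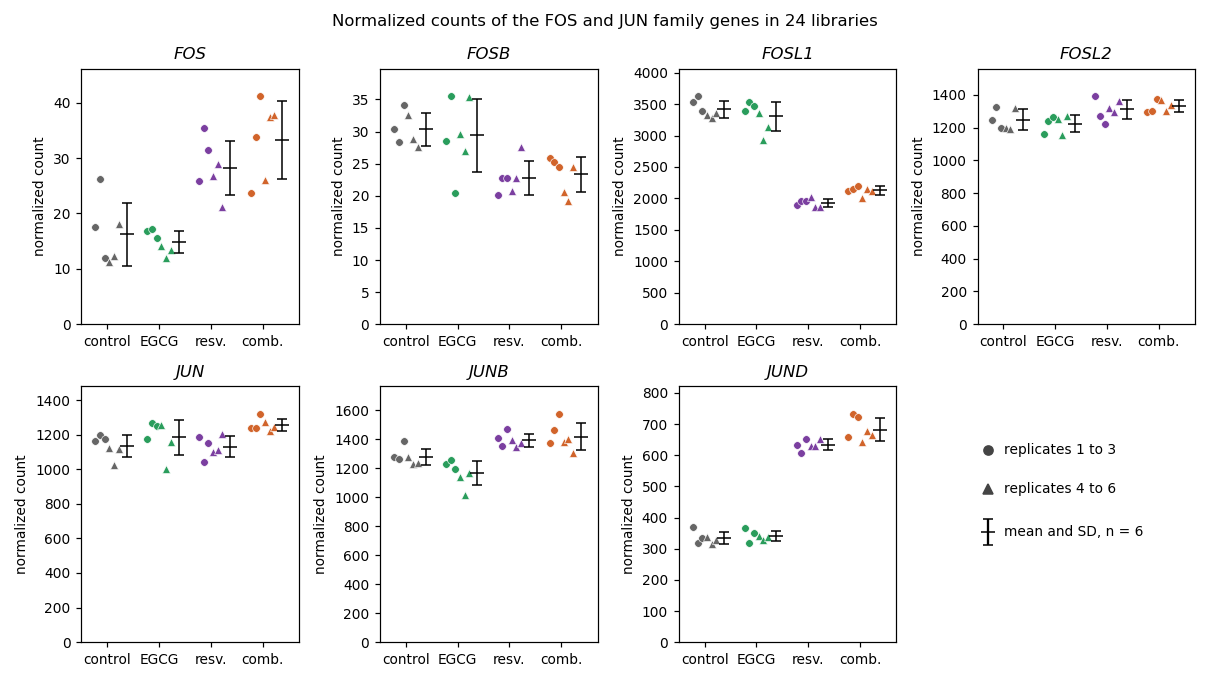
Normalized counts (y axis, from 0) of each gene in the 4 groups (x axis: control, EGCG, resveratrol, combination). Circles are replicates 1 to 3, triangles replicates 4 to 6, and the bar gives the mean and SD of 6 libraries. The FOSL1 libraries with resveratrol lie at 2206 or below and those without it at 2937 or above, and the JUND libraries with resveratrol lie at 609 or above and those without it at 370 or below.

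Of the FOS genes, FOSL1 carried the largest loss. FOSL1 (ENSG00000175592, chromosome 11, 65892049 to 65900573 on the minus strand in GRCh38) encodes FRA-1, a FOS protein without the strong activation domain of FOS itself. Its normalized counts had a lowest, median and highest value of 3285, 3371 and 3629 in the control and 2937, 3375 and 3535 with EGCG. With resveratrol they were 1859, 1929 and 2022, and with the combination 2007, 2137 and 2206. Every library with resveratrol lay below every library without it. FOSL1 fell by 0.82 on the log2 scale with resveratrol (SE 0.037, adjusted p = 4.54e-20), the 38th smallest p of all genes tested. In the combination it fell by 0.68 (SE 0.036, adjusted p = 5.76e-18). The bulk RNA cannot tell fewer transcripts per cell from fewer cells that express the gene.

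The fall of FOSL1 was smaller when EGCG was added. The combination stood 0.14 above resveratrol on the log2 scale (SE 0.037, adjusted p = 0.0180), with 6 of 6 combination libraries above the mean of the resveratrol libraries, although the groups overlapped. Within replicates 1 to 3 the difference was 0.15 (adjusted p = 0.0443), and within replicates 4 to 6 it was 0.13 and not called (adjusted p = 0.181). EGCG without resveratrol gave -0.047 (SE 0.036, adjusted p = 0.714). The interaction, which tests whether the effect of EGCG differs with and without resveratrol, was 0.19 (SE 0.051, unadjusted p = 0.000828) and missed the limit in edgeR at an adjusted p of 0.167. DESeq2 gave it an adjusted p of 0.0794, and a term for the sets of replicates an adjusted p of 0.0373. No member was called for the interaction in edgeR (2 at an unadjusted p under 0.05, FOSL1 and JUNB, and 1 in DESeq2), where 0.265% of all genes were, 0.207% upward and 0.0582% downward.

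FOS (ENSG00000170345, chromosome 14, 75278826 to 75282230 on the plus strand), the founding member of the family, was barely expressed and rose. The 24 libraries held 11 to 47 reads of it, so counting error is large. The lowest, median and highest normalized counts were 11.2, 14.9 and 26.3 in the control and 11.98, 14.83 and 17.24 with EGCG. They were 21.3, 27.8 and 35.3 under resveratrol and 23.7, 35.6 and 41.2 with the combination. Control replicate 2 was the single control library within the range of the resveratrol libraries. FOS rose by 0.82 with resveratrol (SE 0.18, adjusted p = 0.000293) and by 1.05 with the combination (SE 0.18, adjusted p = 6.31e-06). Between the combination and resveratrol the difference was 0.23 (SE 0.16, adjusted p = 0.481).

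FOSB (ENSG00000125740, chromosome 19, 45467995 to 45475179 on the plus strand), the closest relative of FOS, moved the opposite way at a similarly low level of 17 to 37 reads a library. Its lowest, median and highest normalized counts were 27.5, 29.6 and 34.2 in the control and 20.4, 29.1 and 35.6 with EGCG. With resveratrol they were 20.1, 22.7 and 27.6, and with the combination 19.3, 24.5 and 25.9. The highest resveratrol library, at 27.63, reached the lowest control library at 27.54, while in log2 CPM both groups with resveratrol lay wholly below the control. FOSB fell by 0.41 with resveratrol (SE 0.15, adjusted p = 0.0199) and by 0.37 with the combination (SE 0.15, adjusted p = 0.0406). The fall with resveratrol was called within replicates 1 to 3 (-0.49, adjusted p = 0.0667) and not within replicates 4 to 6 (-0.33, adjusted p = 0.261). Neither set of replicates alone called the fall with the combination, at -0.29 (adjusted p = 0.280) and -0.46 (adjusted p = 0.108), and DESeq2 gave it an adjusted p of 0.110. FOSB lies inside the locus of ERCC1 on the other strand, whose change with resveratrol was -0.095 (adjusted p = 0.112), and the strand setting of the counting is not given in the sources used here.

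FOSL2 (ENSG00000075426, chromosome 2, 28392448 to 28417317 on the plus strand), which encodes FRA-2, changed least among the FOS genes that were called. Its lowest, median and highest normalized counts were 1191, 1224 and 1328 in the control, 1153, 1248 and 1272 under EGCG, 1225, 1306 and 1394 under resveratrol and 1294, 1321 and 1378 with the combination. All groups overlapped the control. FOSL2 rose by 0.075 with resveratrol (SE 0.037, adjusted p = 0.0867), a call that 13 of 24 fits without a library and DESeq2 (adjusted p = 0.139) did not make. The combination gave 0.096 (SE 0.037, adjusted p = 0.0268). Replicates 1 to 3 alone called neither rise, at 0.052 (adjusted p = 0.479) and 0.082 (adjusted p = 0.240), and replicates 4 to 6 called both. An antisense RNA, FOSL2-AS1, overlaps the gene and had a mean normalized count of 1.25.

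Of the JUN genes, JUND rose most, and with FOSL1 it had the smallest p-values of the family. JUND (ENSG00000130522, chromosome 19, 18279694 to 18281622 on the minus strand) encodes a JUN protein that is made in resting cells as well. The lowest, median and highest normalized counts were 315, 331 and 370 in the control and 318, 339 and 367 with EGCG. With resveratrol they were 609, 632 and 653, and with the combination 641, 670 and 733. The groups with and without resveratrol did not overlap. JUND rose by 0.93 with resveratrol (SE 0.044, adjusted p = 2.75e-19) and by 1.03 with the combination (SE 0.044, adjusted p = 7.67e-21), both the 51st smallest p of all genes tested. Within replicates 1 to 3 the rise with resveratrol was 0.89 and within replicates 4 to 6 it was 0.96.

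JUND also stood higher in the combination than with resveratrol, by 0.11 (SE 0.041), with 6 of 6 combination libraries above the resveratrol mean, but the difference was not called (adjusted p = 0.133, exact permutation p = 0.0108). The difference was called in 1 of 24 fits without a library, that without combination replicate 4 (0.12, adjusted p = 0.0849). EGCG alone gave 0.028 (SE 0.048, adjusted p = 0.914).

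JUNB (ENSG00000171223, chromosome 19, 12791486 to 12793315 on the plus strand) encodes a JUN protein that can restrain JUN at shared sites. Its lowest, median and highest normalized counts were 1227, 1270 and 1384 in the control and 1017, 1178 and 1257 with EGCG. They were 1346, 1383 and 1467 under resveratrol and 1304, 1393 and 1574 with the combination. JUNB rose by 0.13 with resveratrol (SE 0.043, adjusted p = 0.0143) and by 0.15 with the combination (SE 0.043, adjusted p = 0.00302), and overlap with the control came through control replicate 3. With EGCG its change was -0.13 (SE 0.044, unadjusted p = 0.00486, adjusted p = 0.177), with 6 of 6 libraries below the control mean. This change was called once a term for the sets of replicates entered the model (adjusted p = 0.0521) and within replicates 4 to 6 (-0.18, adjusted p = 0.0958), but not within replicates 1 to 3 (-0.091, adjusted p = 0.755). Against EGCG, JUNB was 0.26 higher with resveratrol (SE 0.044, adjusted p = 6.36e-06) and 0.28 higher in the combination (SE 0.044, adjusted p = 1.07e-06). Its locus falls within HOOK2, transcribed from the other strand. HOOK2 averaged 262 normalized counts and itself rose by 0.29 with resveratrol (adjusted p = 0.000110) and 0.37 with the combination (adjusted p = 2.21e-06). Its part in the JUNB values was not tested.

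JUN (ENSG00000177606, chromosome 1, 58776845 to 58784048 on the minus strand) encodes the prototype JUN protein and the most frequent partner of FOS proteins. The lowest, median and highest normalized counts were 1023, 1142 and 1197 in the control, 999, 1212 and 1268 with EGCG and 1040, 1130 and 1202 with resveratrol. In the combination they were 1219, 1241 and 1320, above every control and every resveratrol library but overlapping the EGCG libraries. The difference between the combination and EGCG was 0.091 and was not called in edgeR (SE 0.046, unadjusted p = 0.0546, adjusted p = 0.0933). It was called in 7 of 24 fits without a library. JUN rose by 0.15 in the combination against the control (SE 0.046, adjusted p = 0.00509) and by 0.15 against resveratrol (SE 0.046, adjusted p = 0.0429). The second call was not made without resveratrol replicate 2 (0.13, adjusted p = 0.137) or within replicates 4 to 6 (0.13, adjusted p = 0.291), and was made within replicates 1 to 3 (0.17, adjusted p = 0.0828).

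Resveratrol without EGCG left JUN at -0.00055 of the control (SE 0.046, adjusted p = 0.993), a sign that turned to 0.087 when library size alone set the scale. That scaling also made 68.3% of all calls with resveratrol upward, against 50.7% in the main scaling. EGCG gave 0.060 (SE 0.046, adjusted p = 0.714). The interaction for JUN was 0.091 (SE 0.065, unadjusted p = 0.166).

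Other genes encode proteins that can form dimers with the members. Of 16 listed AP-1 partners, 14 were tested. With resveratrol 8 rose and 2 fell (ATF2 and BATF3), beside 28.9% of all genes upward and 28% downward, and the median log2 change was 0.17. With the combination 10 rose and ATF2 fell, beside 29.9% of all genes in each direction, with a median of 0.35. ATF3, a stress-induced factor that dimerizes with JUN proteins, had the largest change of the list. It had 114 ± 4.67 normalized counts (SD, n = 6) in untreated cells, 121 ± 7.95 under EGCG, 296 ± 18.3 under resveratrol and 394 ± 40.7 with the combination. The log2 change was 1.39 with resveratrol (SE 0.068, adjusted p = 9.83e-19), 1.80 with the combination (SE 0.067, adjusted p = 1.19e-22) and 0.41 between them (SE 0.057, adjusted p = 6.44e-06). ATF3 is a gene that the study itself chose for follow-up.

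JDP2, a partner of JUN that represses AP-1 sites, was called with EGCG as well, at 0.19 (SE 0.037, adjusted p = 0.00215). Its normalized count was 548 ± 14.0 in the control, 628 ± 26.4 under EGCG, 835 ± 22.1 under resveratrol and 837 ± 33.8 with the combination, so both groups with resveratrol had the same level within their spread. The small MAF protein gene MAFF was the other of the 2 partners called with EGCG (0.25, SE 0.066, adjusted p = 0.0506), beside 1.76% of all genes. It rose to 0.47 over the control in the combination, which stood 0.27 above resveratrol (adjusted p = 0.00748). DDIT3, which encodes the stress factor CHOP, rose by 0.83 under resveratrol and 1.08 with the combination, and by 0.25 between them (adjusted p = 0.00600). MAFG rose by 0.51 with the combination (adjusted p = 3.94e-11). CREB5 was 0.43 higher in the combination than with resveratrol (adjusted p = 0.000456). Between the combination and resveratrol 5 partners were higher and 0 lower, beside 4.01% of all genes upward and 3.86% downward.

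Of 25 other immediate early genes, a list that shares ATF3 with the partners and SRF with the upstream kinases and factors below, 21 were tested. With resveratrol 12 were called, a share like the 56.9% of all genes, of which 9 rose and IER3, KLF6 and MYC fell, beside 28.9% of all genes upward and 28% downward. The median was 0.12. With the combination 13 were called, beside 59.8% of all genes, of which 11 rose and IER3 and SRF fell, and the median was 0.20. EGCG alone called 0, beside 1.76% of all genes (2 at an unadjusted p under 0.05, IER3 and KLF4, and 0 in DESeq2). DUSP1, a phosphatase that shuts off the kinases upstream of AP-1, went from 106 ± 9.91 normalized counts in the control to 176 ± 6.80 under resveratrol and 207 ± 14.1 with the combination. Its log2 change was 0.73 with resveratrol (adjusted p = 1.37e-10) and 0.97 with the combination (adjusted p = 5.96e-14). BTG2, an antiproliferative gene, rose by 0.81 with the combination (adjusted p = 7.44e-10), IER5 by 0.36 with resveratrol (adjusted p = 8.53e-08), and PPP1R15A, a stress-induced phosphatase subunit, by 0.45 with the combination (adjusted p = 2.79e-11). IER3 was at -0.64 with resveratrol (adjusted p = 3.82e-13). EGR1, the classical marker of recent growth factor signalling, was at 0.12 and 0.14 and not called in either comparison.

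**Figure D4:**
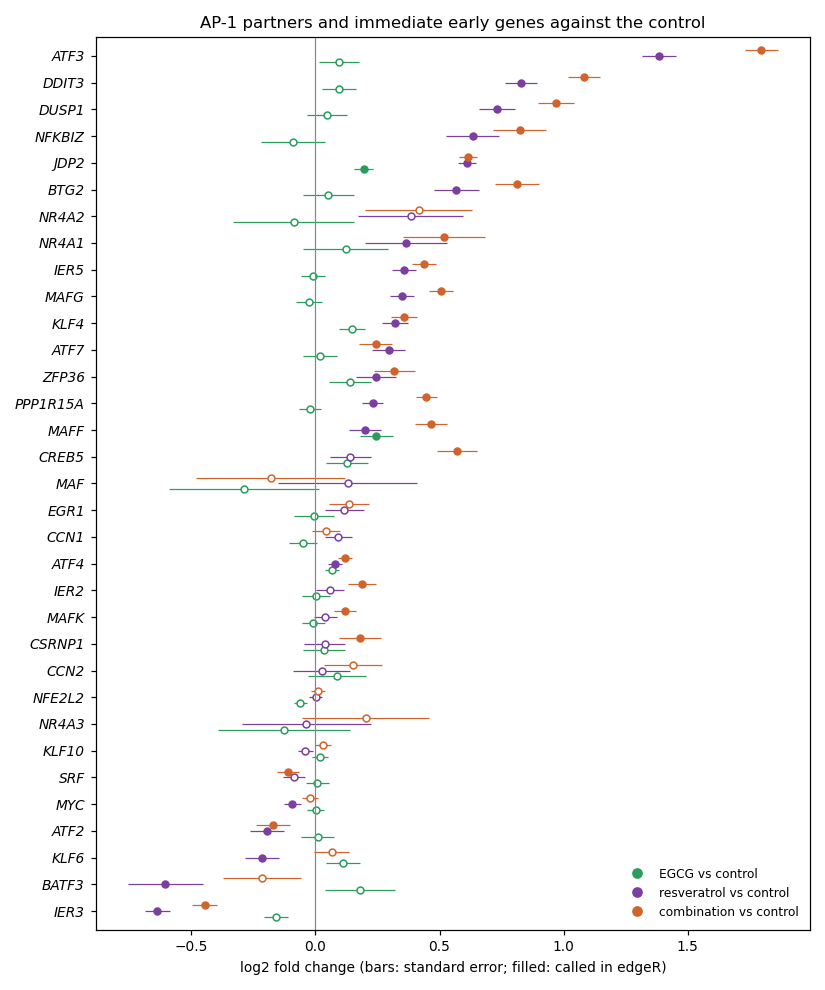
Log2 fold change against the control (x axis, with the standard error as bars) of AP-1 partners and immediate early genes (y axis, ordered by the change with resveratrol). Colours mark EGCG, resveratrol and the combination, and filled points passed the test. ATF3 stands at the top with 1.39 and 1.80, and JDP2 and MAFF are the filled EGCG points.

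The kinases and factors that act upstream of the FOS and JUN promoters showed no common direction. Of 24 listed, 23 were tested, and 7 rose and 5 fell with resveratrol, beside 56.9% of all genes called, with a median of -0.0068. With the combination 8 rose and 6 fell, beside 59.8% of all genes called, with a median of 0.0019. Both counts are near the share over all genes, so the calls do not set this list apart. MAP2K4, a kinase of the JNK branch, fell by 0.30 with resveratrol (adjusted p = 2.20e-08) and by 0.40 with the combination (adjusted p = 3.31e-11). MAPK8, which encodes the JUN kinase JNK1, rose by 0.24 in both comparisons (adjusted p = 7.48e-05 and 8.34e-05). RPS6KA5, a kinase that phosphorylates CREB and histone H3, rose by 0.55 with resveratrol, and GSK3B, whose protein marks JUN for decay, was at -0.21 (adjusted p = 9.39e-05). MAPK7 rose by 0.33 with the combination. Against resveratrol the combination changed 1 gene of this list, MAP2K1, at 0.11 (adjusted p = 0.0795), beside 7.86% of all genes. EGCG alone changed 0, beside 1.76% of all genes (2 at an unadjusted p under 0.05, MAPK7 and MAP2K4, and 0 in DESeq2).

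Of 8 genes for the breakdown of JUN and FOS proteins, 7 were tested. COP1, a ubiquitin ligase for JUN, fell by 0.44 with resveratrol (adjusted p = 8.71e-09) and by 0.48 with the combination (adjusted p = 1.28e-09). ITCH, another ligase of JUN proteins, fell by 0.25 and 0.20. The deubiquitinase gene USP28 rose by 0.27 with resveratrol. CSNK1A1 was the further gene lower in both. In each comparison 2 rose and 3 fell, beside 56.9% and 59.8% of all genes called, with medians of 0.048 and 0.017. Against resveratrol the combination changed 0 of them, beside 7.86% of all genes (1 at an unadjusted p under 0.05, USP28, and 0 in DESeq2). EGCG alone changed 0, beside 1.76% of all genes (1 at an unadjusted p under 0.05 and 0 in DESeq2).

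Genes with known AP-1 sites did not follow a single direction either. All 24 listed targets were tested. With resveratrol 6 rose and 14 fell, beside 28.9% of all genes upward and 28% downward, with a median of -0.18. With the combination 9 rose and 11 fell, beside 29.9% of all genes in each direction, with a median of -0.015. EGCG called 2 targets, both lower, beside 1.76% of all genes, 0.859% downward. MMP3, the stromelysin gene, was 1 of these 2, at -0.52 (SE 0.12, adjusted p = 0.0143), and it fell by 1.48 with resveratrol (SE 0.14, adjusted p = 1.75e-11).

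HBEGF, CXCL8 and MMP13 rose instead. HBEGF, a ligand of the EGF receptor, went from 175 ± 17.8 normalized counts in the control to 329 ± 21.1 under resveratrol and 452 ± 44.6 with the combination, log2 changes of 0.91 and 1.37 (adjusted p = 2.63e-12 and 1.18e-17). CXCL8, which encodes interleukin 8, went from 50.3 ± 7.72 to 191 ± 20.8 normalized counts with the combination, a change of 1.92 (SE 0.12, adjusted p = 1.35e-16), and stood 0.67 above resveratrol alone (adjusted p = 1.46e-05). The collagenase gene MMP13 rose by 0.70 with the combination (SE 0.052, adjusted p = 5.10e-14).

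**Figure D5:**
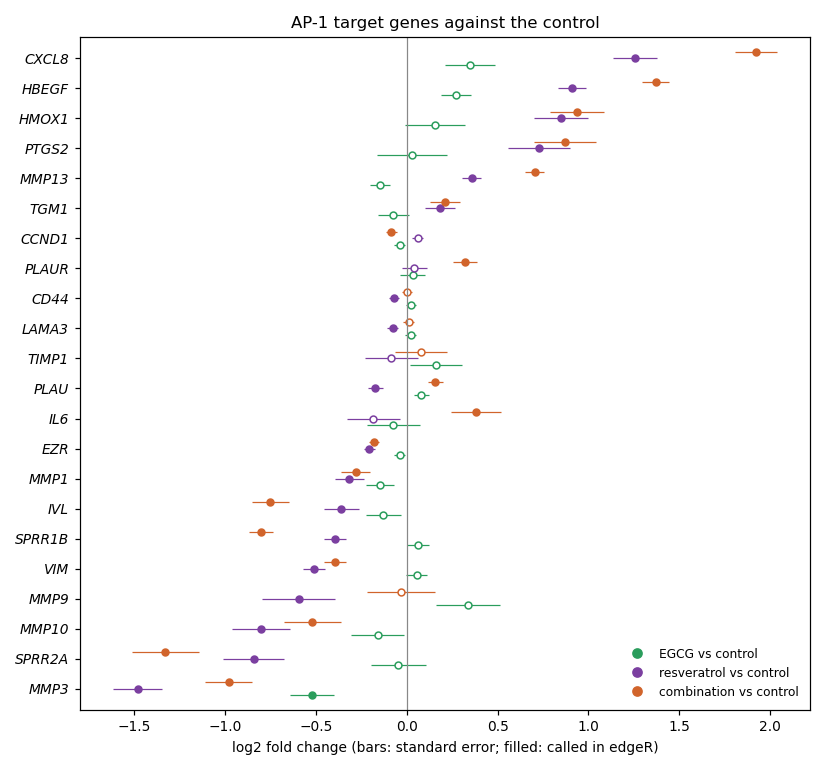
Log2 fold change against the control (x axis, with the standard error as bars) of AP-1 target genes (y axis, ordered by the change with resveratrol) for EGCG, resveratrol and the combination, where filled points passed the test. Changes with resveratrol run from -1.48 for MMP3 to above 1.2 for CXCL8, and the filled EGCG point is that of MMP3.

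Adding EGCG to resveratrol changed 12 of the 24 targets, 9 higher and 3 lower, beside 7.86% of all genes. Among the higher ones were the urokinase gene PLAU (0.33, adjusted p = 8.77e-07) and MMP13 (0.35, adjusted p = 1.32e-05). The interaction was called for 6 targets, where 0.265% of all genes were called. Among them it was above 0 for MMP3, MMP13 and PLAU and below 0 for SPRR1B, a precursor of the cornified envelope. These genes were singled out after their values were seen. Within replicates 1 to 3 the interaction was called for MMP13 (adjusted p = 0.0569) and SPRR1B (0.0257) and not for MMP3 (0.629) or PLAU (0.297). Within replicates 4 to 6 it was called for PLAU (adjusted p = 0.0316) and SPRR1B (0.000242) and not for MMP3 (0.152) or MMP13 (0.108).

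The genes whose log2 CPM ran most like a member over the 24 libraries were sought among all tested genes, as a description without a test. Because the libraries share 4 group means, a high Pearson r mostly reflects the groups, and the r of deviations from the group means is given beside it. FOSL1 ran most like FAM83C (r = 0.993, 0.73 for the deviations), FSCN1 (0.988, 0.707) and NRG1 (0.986, 0.426). JUND ran most like SQSTM1 (0.994, 0.587), CDKN1A (0.992, 0.636) and WBP2 (0.992, 0.708). FOS ran most like DDIT3 (0.896, 0.542), PTPDC1 (0.896, 0.53) and FGFR1 (0.895, 0.515). Over the 24 libraries r was lower for the members that moved less, while the r of deviations, given second, was not lower for them. FOSB had POLR1E (0.875, 0.736), CTDP1 (0.811, 0.585) and AFAP1L1 (0.797, 0.678). FOSL2 had DNAJC5 (0.874, 0.793), PKD1P2 (0.817, 0.659) and MARVELD1 (0.814, 0.714). JUNB had DNAJB2 (0.857, 0.536), AKR1B1 (0.857, 0.651) and RNF114 (0.854, 0.568). JUN had GNA12 (0.809, 0.727), ALDOA (0.794, 0.774) and GPR176 (0.760, 0.602).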

How the data were processed

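Stranded mRNA libraries of 24 samples were sequenced in paired reads. Per the labels, the authors used bcl2fastq 2.17.1.14, Trimmomatic 0.36, FastQC 0.11.5, HISAT2 2.0.4, SAMtools 1.3.1 and DESeq2 1.20.0 with GRCh38. The counting program, annotation release and strand setting are not given in the sources used here. The authors deposited raw counts per gene, which were used for every test. The deposited normalized counts, a signal per gene, equal the raw counts divided by DESeq2 size factors, and the deposited FPKM values are these divided by gene length. FPKM was used only to compare levels between genes.

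The 7 members and all lists were chosen with earlier results of these data known, and the lists come from general knowledge. Counts were filtered with filterByExpr, scaled by TMM and fitted with edgeR 4.0.16 (R 4.3.3) with 1 mean per group over all 24 libraries. Standard errors are those implied by the p. CPM on the log2 scale used a prior count of 2. Steps were tested on simulated data. Alternatives were DESeq2 1.42.0, other scalings and filters, a stricter limit, only the groups compared, a replicate block, a term for the sets of replicates, each set alone and leaving out each library. From each list, up to 4 called genes of smallest p per comparison of EGCG, resveratrol and the combination with the control, and of the combination with resveratrol, are named. Some listed genes are counted but not reported here by name or in the plots. Further genes named where few were called, and EGR1, were chosen after their values were seen. Neighbours and gene positions come from GENCODE 44, promoters from RefSeq.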

Additional observations from a re-analysis of the deposited data

Results flagged for a closer look

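In 28 groups of 6 libraries of the members, Dixon's test marked 2 libraries that stood apart from the other 5, and about 1 in 20 groups is marked by chance. FOSB had a normalized count of 27.63 in resveratrol replicate 6, with the nearest library at 22.77. JUNB had 1384 in control replicate 3, with the nearest at 1278.

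The effect of EGCG differed with and without resveratrol, by the interaction term in edgeR, for genes of the lists. MMP3 had an interaction of 1.02, at -0.52 for EGCG alone and 0.50 on top of resveratrol. MMP13 had 0.496, at -0.15 and 0.35. IER3 had 0.351, at -0.16 and 0.19. PLAU had 0.249, at 0.080 and 0.33, and was called in 16 of 24 fits without a library (adjusted p between 0.0194 and 0.140), while MMP3, MMP13, IER3 and SPRR1B were called in all 24. Within a single set of 3 replicates, SPRR1B was called in both sets, MMP3 in neither (adjusted p = 0.629 in replicates 1 to 3 and 0.152 in replicates 4 to 6), IER3 was not called in replicates 1 to 3 (0.194), PLAU not in replicates 1 to 3 (0.297) and MMP13 not in replicates 4 to 6 (0.108). SPRR1B had -0.469, at 0.062 and -0.41.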

How the results depend on the processing

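Of the 26 called changes of the members none reversed under any alternative run. All 26 were called with the replicate block, with a term for the sets of replicates, with only the groups compared and with at least 10 counts in every library, 23 in DESeq2, 24 with library size alone, 21 in each set of replicates, and 602 of 624 values when each library was left out. The calls lost under some alternative were FOSB with resveratrol and with the combination against the control and with resveratrol against EGCG, FOSL2 in the same comparisons, and both calls of the combination against resveratrol, FOSL1 and JUN. The labels do not say whether replicate numbers pair the samples, and this was not settled here. In deviations from the group means, 2 of 36 same-numbered pairs correlated above 0.1. Still, 14 of 24 libraries correlated best with a library of their own number. The main fit has no block, and the replicate block raised the genes called from 273 to 370 with EGCG. For the interaction they rose from 41 to 85. With the replicate block, called members rose from 0 to 1 with EGCG (JUNB) and from 0 to 1 for the interaction (FOSL1). The same counts of 1 came from a term for the sets of replicates, and the interaction count of 1 also from DESeq2 and from genes with at least 1 count. In all comparisons together, 3 member changes not called in the main fit were called with the block, and 3 with that term. Replicates 4 to 6 alone gave 1 member with EGCG and 0 for the combination against resveratrol.

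Reversed values were of changes not called. JUN with resveratrol against the control was 0.0874 with library size alone, 0.0252 with at least 10 counts, 0.00529 with only the groups compared and 0.0615 in replicates 4 to 6, and against EGCG 0.0206 and 0.0152 with library size and in replicates 4 to 6. In replicates 4 to 6, FOSB was 0.0206 with EGCG, -0.134 for the combination against resveratrol and -0.155 for the interaction, and JUNB was -0.00946 for the combination against resveratrol. Leaving out each library gave -0.205 to 0.0509 for FOS with EGCG (control replicate 2), -0.124 to 0.0212 for FOSB with EGCG (EGCG replicate 3), -0.0179 to 0.0233 for JUN with resveratrol and -0.00762 to 0.0512 for JUNB in the combination against resveratrol (combination replicate 3). It gave 0 to 1 called members with EGCG, 1 to 3 for the combination against resveratrol and 0 to 1 for the interaction.

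List counts moved as follows. Partners with EGCG (2) were 1 in DESeq2, at an adjusted p under 0.05 and with at least 1 count, 0 in either set of replicates, and 1 to 2 leaving out libraries; for the combination against resveratrol (5) 3 in replicates 1 to 3; for the interaction (0) 1 with library size and 0 to 1 leaving out libraries. Immediate early genes with EGCG (0) were 1 with the block, the term for the sets, at least 1 count and only the groups compared, and 0 to 1 leaving out libraries; for the interaction (1) 2 in DESeq2, both filters, the block and the term, 0 in replicates 1 to 3, and 1 to 2 leaving out libraries. Upstream genes for the combination against resveratrol (1) were 0 in DESeq2, library size, at least 1 count, an adjusted p under 0.05 and either set, 2 with the block, and 0 to 1 leaving out libraries; in replicates 1 to 3 they were 9 against the control (14) and 8 against EGCG (14). Breakdown genes for the combination against the control (5) were 3 at an adjusted p under 0.05 and in replicates 4 to 6, and 3 to 6 leaving out libraries; against resveratrol (0) 1 with library size, at least 1 count, the block and the term, and 0 to 1 leaving out libraries; against EGCG (4) 2 to 4 leaving out libraries; for resveratrol against EGCG (3) 5 with library size. Targets with EGCG (2) were 1 and for the interaction (6) 3 in either set. The cause of these moves was not tested. Library size alone raised the share of upward calls from 50.7% to 68.3% with resveratrol and from 50% to 64.6% with the combination. FOS and FOSB, with 11 to 47 reads a library, are limited by counting error.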

Other observations

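COL1A1, on the list of markers of other cell types, changed in all 3 treated groups. It was at -0.27 with EGCG (adjusted p = 0.00215), 0.29 with resveratrol (adjusted p = 7.96e-06) and 0.48 with the combination (adjusted p = 2.91e-10). Its interaction was 0.46 (adjusted p = 0.000787). The fibroblast genes DCN and COL1A2 stayed at or under 0.30 FPKM in every library.

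Among the members, FOSL1 and JUND ran most opposite over the 24 libraries (r = -0.952), while the r of their deviations from the group means was 0.238. FOSL1 and FOS had -0.756 over the libraries and 0.644 for the deviations. These values are across libraries that share 4 group means and carry no test.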
